A study of Homo sapiens with 6 samples.

Results

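The mitochondrial protein import machinery was examined as 34 protein-coding genes among the 60604 genes of an RNA sequencing count table. Members were all protein-coding genes whose symbol starts with TOMM or TIMM, together with SAMM50, MTX1, MTX2, PAM16, GRPEL1, GRPEL2, PMPCA and PMPCB. A further 24 genes with matching symbols, 21 of them processed pseudogenes, do not code for protein and were left out.

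The cells were MIA PaCa-2, a pancreatic carcinoma line long kept in culture and labelled as WT. The BP+Huaier group (3 libraries) received 12.5 µg/ml black phosphorus (BP), a nanomaterial of stacked phosphorus sheets, plus 10 mg/ml Huaier, a preparation from the fungus Trametes robiniophila. The BP group (3 libraries) received BP alone at 12.5 µg/ml. Both groups thus carry BP, and cells that had no BP were not analysed here. The series addresses Huaier as an addition to BP with regard to mitophagy and autophagy. Neither the length of treatment nor separate culture of the libraries is stated in the labels, so p-values here measure library-to-library spread alone, and that spread may be technical.

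Nearly all mitochondrial proteins are encoded in the nucleus, made in the cytosol and imported. The outer membrane translocase (TOM) receives them, the sorting and assembly machinery (SAM) inserts barrel proteins into the outer membrane, small TIM chaperones carry hydrophobic proteins across the intermembrane space, and the TIM22 and TIM23 complexes insert or pass them through the inner membrane. A motor on the matrix side pulls proteins in, and the matrix processing peptidase removes their targeting signal. Failed import leaves the kinase PINK1 on the TOM complex, which starts mitophagy.

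Total counts on genes lay between 15808056 and 16856727 in the BP+Huaier libraries and between 15657593 and 17036565 in the BP libraries. BP+Huaier 3 stood apart from its group. Its score on the first principal component (72.4% of the variance) was -11.5, that of BP+Huaier 1 was -65.1, that of BP+Huaier 2 was -66, and BP scores ran between 43.4 and 50.5. Results that rest on it are therefore given with and without it. The keratins KRT8, KRT18 and KRT19 were at 212 CPM or more in every library (CPM, counts scaled by TMM to a common total), while KRT7 and EPCAM stayed under 1 CPM and CDKN2A, known to be deleted in MIA PaCa-2, had 0 counts. Of the markers of other cells, 4 of 5 acinar, 3 of 4 endocrine, 2 of 5 fibroblast (DCN, LUM) and 2 of 5 immune genes (PTPRC, CD3E) had 0 counts in all libraries. The summed fibroblast markers, nearly all COL1A2, were at 379 to 483 CPM in BP+Huaier and 495 to 550 CPM in BP. COL1A1 went the other way, at 6.43, 6.13 and 5.19 CPM in BP+Huaier and 1.37, 1.22 and 1.42 CPM in BP. PDGFRB stayed under 1 CPM. The immune sum, nearly all CD14, was at 21.3 to 34.1 CPM in BP+Huaier and 40.9 to 45.5 CPM in BP, and the endothelial sum, nearly all CDH5, at 11.9 to 14.7 CPM in BP+Huaier and 17.6 to 21.1 CPM in BP. The 5 epithelial markers summed to 1528 to 3219 CPM in BP+Huaier and 1546 to 1718 CPM in BP. Their part in the values of the import genes was not tested. All 13 messenger RNAs of the mitochondrial genome are listed at 0 in every library, so their level beside that of the import genes could not be compared.

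TOMM40L, a paralog of the import pore, and TIMMDC1, an assembly factor of respiratory complex I that shares the TIMM name, fell in BP+Huaier, and no member was called higher. Of 34 members 32 passed the filter on low counts, and 30 of these did not pass the test (edgeR quasi-likelihood test, Benjamini-Hochberg adjusted p under 0.05 over all 15022 tested genes). Over all tested genes 29.3% were called, 14.4% higher and 15.0% lower, whereas 2 of 32 members, or 6.25%, were called. At an unadjusted p under 0.05 edgeR found 7 higher and 3 lower members, beside 43.3% of all tested genes. DESeq2 called 5 members higher and 3 lower (25.0%), beside 34.6% of all tested genes. The median log2 fold change of the members was 0.16, beside -0.02 over all tested genes, and their changes spanned -0.64 to 0.62. Changes past 1.5-fold were seen for 3 of 32 members (9.38%), TOMM40, TOMM40L and TIMM21, and for 36.5% of all tested genes. In bulk RNA, fewer cells of a type and less RNA per cell cannot be told apart.

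The groups did not overlap for 9 members. TOMM34, GRPEL2, TIMM44, PMPCA and TIMM17B were higher in 3 of 3 BP+Huaier libraries, and TOMM40L, TIMMDC1, PMPCB and TIMM21 were lower in 3 of 3. That is 28.1% of the tested members, and over all tested genes the share with no overlap was 46.8%. Without BP+Huaier 3, 14 of 32 members were called by edgeR, 10 higher (TOMM40, TOMM22, MTX1, TIMM13, TIMM29, TIMM50, TIMM17B, TIMM44, PMPCA and TOMM34) and 4 lower (TOMM40L, TIMMDC1, TIMM21 and PMPCB), beside 59.8% of all genes. Without BP 1, BP 2, BP 3 or BP+Huaier 2, 0 members were called by edgeR, and calls over all genes were also fewer, at 11.2%, 11.6%, 13.4% and 12.6%. At an unadjusted p under 0.05 edgeR then found 5, 3, 5 and 4 members, beside 31.5%, 31.5%, 34.4% and 31.7% of all genes.

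**Figure D1:**
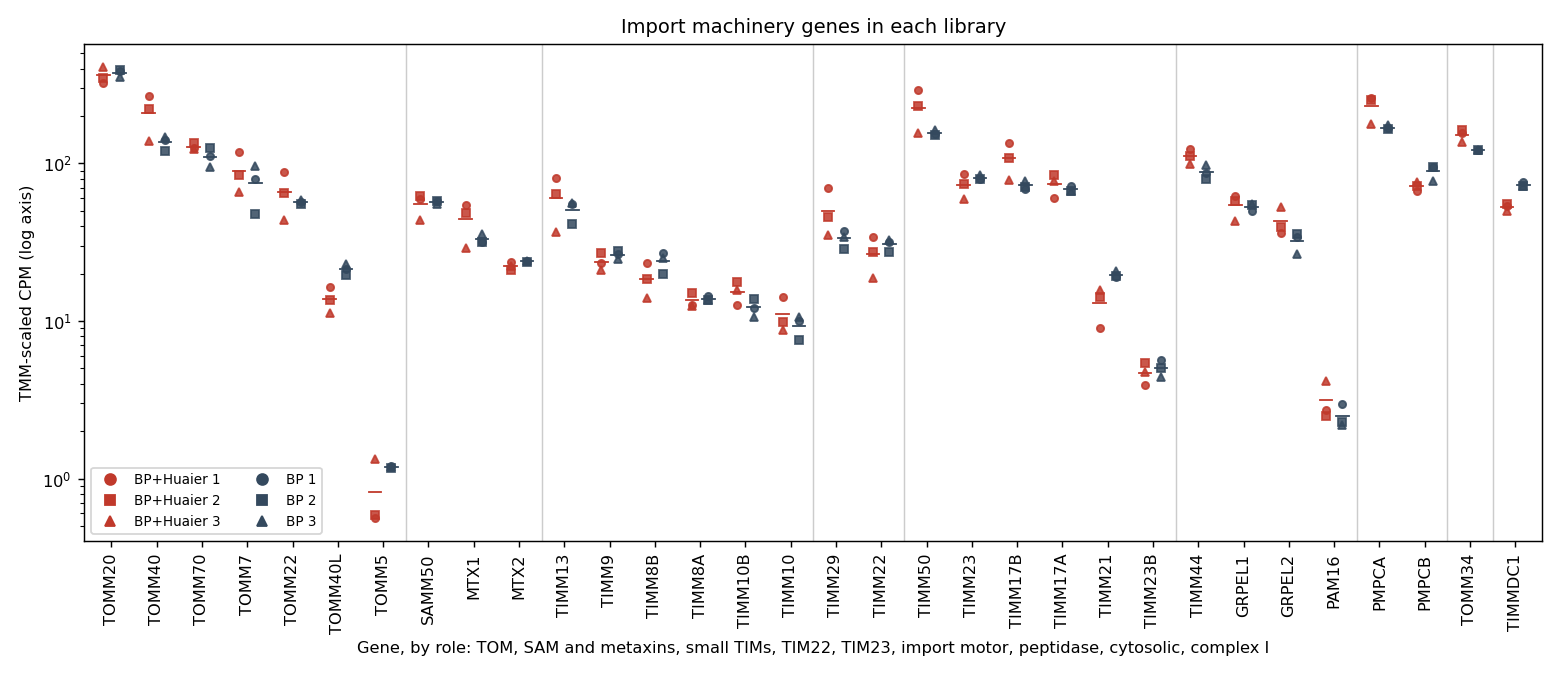
Level of each of the 32 tested import genes (TMM-scaled CPM, log axis) in 3 BP+Huaier libraries (left of each gene, red) and 3 BP libraries (right, dark), with marks for the libraries and short lines for group means, and genes ordered by role. TOMM20 is the highest and TOMM5 the lowest, and most groups overlap or lie close together.

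The sequences before the start of the 2 called genes are shown because these genes carry the calls. The stretches are those within 250 bases upstream of the RefSeq start that hold no exon in GENCODE 29, 5′ to 3′ on the gene's strand (RefSeq, GRCh38.p14). That of TIMMDC1 is chr3:119498297-119498531 (+), with capitals for the motif CCGGAAGT of GABPA (nuclear respiratory factor 2) on either strand. That of TOMM40L is chr1:161225810-161225938 (+), with capitals for the motif CCAAT on either strand.
TIMMDC1: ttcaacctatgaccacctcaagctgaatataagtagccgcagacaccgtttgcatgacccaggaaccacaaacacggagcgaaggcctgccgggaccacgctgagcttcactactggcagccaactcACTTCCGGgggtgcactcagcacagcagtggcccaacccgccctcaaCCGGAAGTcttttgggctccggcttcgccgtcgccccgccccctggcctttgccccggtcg
TOMM40L: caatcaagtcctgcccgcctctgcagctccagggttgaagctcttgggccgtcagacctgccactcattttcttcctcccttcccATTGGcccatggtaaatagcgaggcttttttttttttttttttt
GABPA is known to drive many nuclear genes for mitochondrial proteins. The RefSeq table matched 31 of 34 members by symbol, all but GRPEL1, TIMM8B and TOMM5, and the first listed start was used for each gene. The motif stood in the 250 bases upstream of 8 of these 31 members (25.8%), namely TOMM20, TOMM70, TOMM6, TIMM10, TIMM10B, TIMM29, GRPEL2 and TIMMDC1, and in 7.13% of 10830 promoters of tested genes. Matches in 4 members are shown in 30-base windows, turned so that the motif, in capitals, reads 5′ to 3′.
TOMM20, chr1:235128841-235128870 (-): gttgactgggaCCGGAAGTggcgtgtgctc
TOMM70, chr3:100401175-100401204 (-): tttcccttaacCCGGAAGTgatttccgccc
GRPEL2, chr5:149345341-149345370 (+): cacactgagagCCGGAAGTgttgccttagc
TIMM29, chr19:10928710-10928739 (-): cgccaactttaCCGGAAGTggcttcccaac
CCAAT stood in 35.5% of members and 34.79% of promoters, the YY1 motif AAGATGGC in 3.2% and 1.89%, and TATAAA in 0 members and 5.08%, all searched on both strands. The 1 member with the YY1 motif was TOMM40L, with the match outside the stretch printed above. The full motif of the factor NRF1, searched in the same way, stood in 0 members and 1.99% of promoters. Its core with 1 free base stood in 19.4% and 10.67%. A match of letters is a description and shows neither binding nor its absence.

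Among the TOM genes, the receptors and the pore did not pass the test, and the pore paralog TOMM40L fell. TOMM20 (ENSG00000173726.11, chromosome 1, 235109341 to 235128837, GRCh38 as in the deposited table), the receptor for targeting signals, was at 324, 350 and 412 CPM in BP+Huaier 1, 2 and 3 and at 385, 390 and 356 CPM in BP 1, 2 and 3. The groups overlapped, with a fold of 0.96 (95% interval 0.768 to 1.20; edgeR adjusted p = 0.77). TOMM20 also had the highest level per length of all members, 105 ± 13.1 CPM per kilobase of exon in BP+Huaier and 110 ± 5.4 in BP (SD, n = 3 each). TOMM22, the central receptor, was at 88.6, 65.2 and 43.7 CPM in BP+Huaier and 57.3, 55.5 and 58.4 CPM in BP. Its BP+Huaier libraries lay on both sides of the BP libraries, which were close to each other (log2 fold change 0.21 ± 0.23 SE; edgeR adjusted p = 0.51). Without BP+Huaier 3 the log2 fold change was 0.44 (edgeR adjusted p = 0.0075). TOMM70, the receptor for carrier proteins, was at 125, 134 and 123 CPM in BP+Huaier and 112, 125 and 94.9 CPM in BP, with overlap between the groups (log2 fold change 0.21 ± 0.14 SE, edgeR adjusted p = 0.29).

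TOMM40 (ENSG00000130204.13, chromosome 19, 44890569 to 44903689), the pore, was at 269, 221 and 139 CPM in BP+Huaier and 141, 120 and 148 CPM in BP. BP+Huaier 1 and 2 were above every BP library and BP+Huaier 3 was within their range. The log2 fold change was 0.62 ± 0.23 (edgeR adjusted p = 0.069, range 2.2e-05 to 0.22 over 15 alternatives), and without BP+Huaier 3 it was 0.86 (edgeR adjusted p = 2.2e-05). TOMM40L (ENSG00000158882.15, chromosome 1, 161225939 to 161230746) was at 16.5, 13.5 and 11.2 CPM in BP+Huaier and 21.4, 19.6 and 23.1 CPM in BP. All BP+Huaier libraries were below all BP libraries, and here BP+Huaier 3 was the lowest. It fell 1.56-fold (log2 fold change -0.64 ± 0.18 SE; edgeR adjusted p = 0.028), and without BP+Huaier 3 the log2 fold change was -0.50 (edgeR adjusted p = 0.0087). Leaving out BP 1, BP 2, BP 3 or BP+Huaier 2 ended the call (edgeR adjusted p = 0.10, 0.075, 0.13 and 0.10). Exons of NR1I3 on the opposite strand, with at most 50 counts in a library, overlap 20.1% of its exon bases.

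The small TOM subunits TOMM5, TOMM6 and TOMM7 are accessory parts of the pore complex. TOMM7, which also holds PINK1 at the outer membrane, was at 118, 84.8 and 66.3 CPM in BP+Huaier and 80.0, 47.7 and 96.3 CPM in BP. Its BP libraries differed from each other about as much as its BP+Huaier libraries, and the groups overlapped (edgeR adjusted p = 0.49). TOMM5 had 8, 8 and 23 counts in BP+Huaier and 22, 22 and 20 in BP. BP+Huaier 3 was close to the BP libraries, and BP+Huaier 1 and 2 were lower (edgeR adjusted p = 0.38, and 0.050, no call, without BP+Huaier 3). TOMM6 had 0 counts in every library. All of its 637 exon bases lie inside exons of another gene on the same strand, so its level could not be read, and TOMM5 exons share up to 14.4% of their bases with such a gene. TOMM20L, a paralog of TOMM20, had 2 to 4 counts per library, where 3 counts are 0.16 to 0.222 CPM, and was not tested. The 4 pseudogenes of TOMM40 together held at most 113 counts in a library, and how reads that map to several places were counted is not given.

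**Figure D2:**
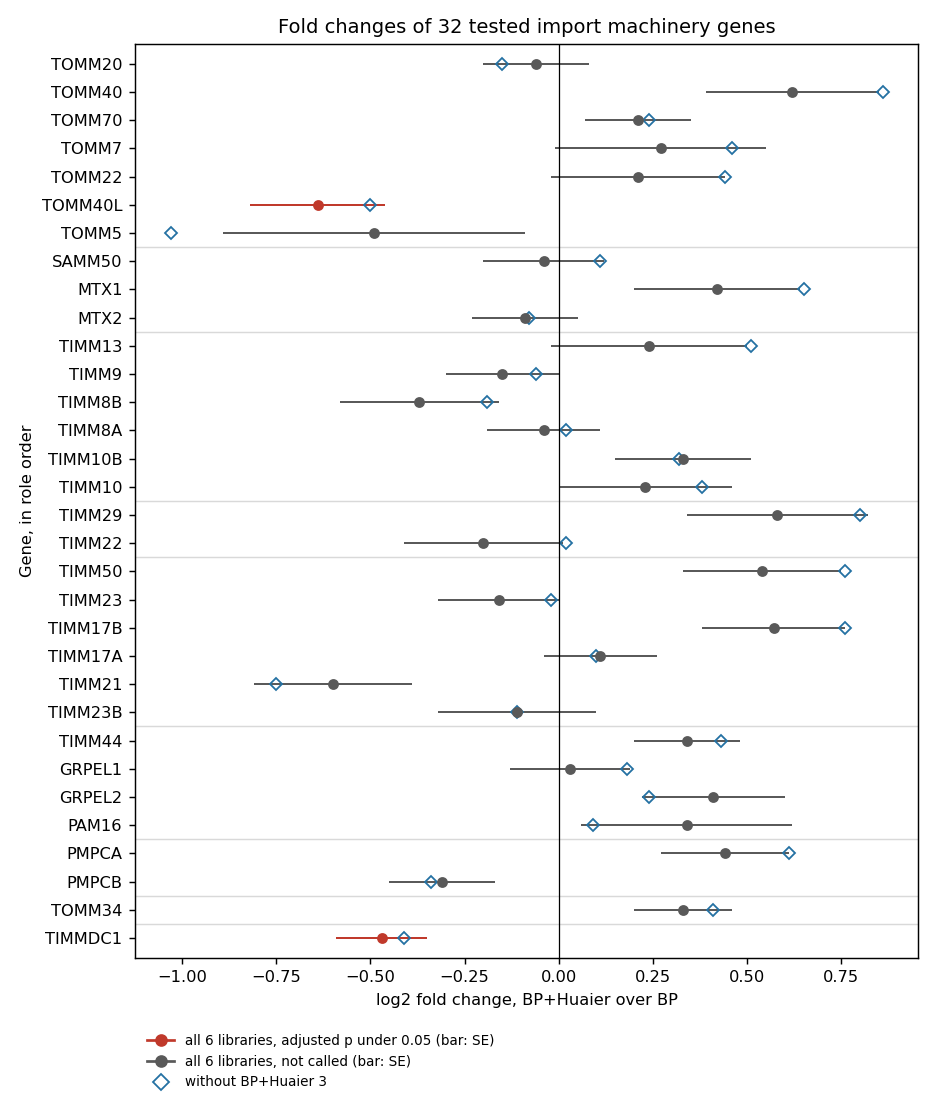
Log2 fold change of BP+Huaier over BP for the 32 tested import genes in role order (circles, bars are SE, red where the edgeR adjusted p is under 0.05), with the value without BP+Huaier 3 as open diamonds. TOMM40L and TIMMDC1 are the called genes, and the diamonds of TOMM40, TIMM50, TIMM17B and TIMM29 lie further right than their circles.

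The 3 genes of the SAM complex and the metaxins were not called. SAMM50, the barrel insertase, was at 59.4, 62.1 and 43.9 CPM in BP+Huaier and 57.5, 57.5 and 54.9 CPM in BP, a fold of 0.973 (95% interval 0.759 to 1.25). MTX2, its partner and the metaxin with the higher level per length in BP, was at 23.8, 21.1 and 22.4 CPM in BP+Huaier and 24.1, 23.6 and 24.0 CPM in BP. For both genes the groups overlapped, with edgeR adjusted p = 0.87 for SAMM50 and 0.62 for MTX2. MTX1 was at 54.8, 48.2 and 29.2 CPM in BP+Huaier and 31.5, 31.9 and 35.6 CPM in BP. As with TOMM40, BP+Huaier 3 lay apart from the other BP+Huaier libraries, here below every BP library (log2 fold change 0.42 ± 0.22, edgeR adjusted p = 0.18, and 0.65 with 2.5e-04 without BP+Huaier 3).

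None of the 6 small TIM genes was called, beside 29.3% of all tested genes, and 3 changes were above and 3 below 0. The groups overlapped for all 6, while 46.8% of all tested genes had no overlap. At an unadjusted p under 0.05 edgeR found 0 of the 6, beside 43.3% of all tested genes. A list of 6 genes is short for such counts. TIMM13, the member of highest level per length, works with TIMM8A and was at 80.3, 63.6 and 36.9 CPM in BP+Huaier and 54.9, 41.2 and 56.5 CPM in BP. BP+Huaier 3 was the lowest of all 6 libraries and BP+Huaier 1 the highest (log2 fold change 0.24 ± 0.26, edgeR adjusted p = 0.50, and 0.51 with 0.0068 without BP+Huaier 3). TIMM9 and TIMM10, which form a hexamer that carries hydrophobic proteins, averaged 23.8 ± 2.94 and 11 ± 2.95 CPM in BP+Huaier and 26.4 ± 1.52 and 9.36 ± 1.59 CPM in BP (SD, n = 3). TIMM8A, the gene of deafness-dystonia syndrome, averaged 13.5 ± 1.47 CPM in BP+Huaier and 13.8 ± 0.504 CPM in BP (SD, n = 3). TIMM8B averaged 18.6 ± 4.66 CPM in BP+Huaier and 24.0 ± 3.66 CPM in BP, with 30.1% of its exon bases overlapping NKAPD1 on the opposite strand, which had 249 to 363 counts in BP+Huaier and 595 to 740 in BP. TIMM10B averaged 15.3 ± 2.53 CPM in BP+Huaier and 12.2 ± 1.61 CPM in BP. The log2 fold changes of these 6 genes lay between -0.37 and 0.33.

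Both genes of the TIM22 complex, which inserts carrier proteins into the inner membrane, missed the threshold. TIMM22, its channel, was at 34.0, 27.6 and 18.7 CPM in BP+Huaier and 31.7, 27.3 and 32.7 CPM in BP. BP+Huaier 3 was the lowest library and the others overlapped BP (edgeR adjusted p = 0.51). TIMM29, a subunit that stabilises the complex, was at 69.6, 45.7 and 35.0 CPM in BP+Huaier and 37.4, 28.7 and 34.3 CPM in BP. BP+Huaier 1 and 2 exceeded every BP library (log2 fold change 0.58 ± 0.24, edgeR adjusted p = 0.097, and 0.80 with 7.5e-04 without BP+Huaier 3).

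The 6 genes of the TIM23 complex, which passes proteins with a targeting signal, included changes of opposite sign of which none passed the test, although TIMM17B and TIMM21 did not overlap between groups. TIMM50, the receptor of the complex, was at 292, 231 and 157 CPM in BP+Huaier and 153, 152 and 163 CPM in BP. BP+Huaier 1 and 2 were above every BP library and BP+Huaier 3 was among them (log2 fold change 0.54 ± 0.21, edgeR adjusted p = 0.082, and 0.76 with 3.4e-05 without BP+Huaier 3). TIMM23, the channel, was at 85.2, 74.3 and 59.1 CPM in BP+Huaier and 80.0, 79.5 and 84.2 CPM in BP. The groups overlapped, with a fold of 0.896 (95% interval 0.702 to 1.14; edgeR adjusted p = 0.46). TIMM23B, a near-identical copy, was at 4.70 ± 0.744 CPM in BP+Huaier and 5.05 ± 0.614 CPM in BP (SD, n = 3), and reads could be split between the 2 copies, so each value is uncertain.

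TIMM17B (ENSG00000126768.12, chromosome X, 48893447 to 48898143), a subunit beside the channel, was at 135, 109 and 78.7 CPM in BP+Huaier and 68.8, 71.0 and 77.6 CPM in BP. All BP+Huaier libraries were above all BP libraries, BP+Huaier 3 by little, and the adjusted p was just over the threshold (log2 fold change 0.57 ± 0.19, edgeR adjusted p = 0.053, range 5.6e-05 to 0.18 over 15 alternatives, 5 of them calls, and 0.76 with 5.6e-05 without BP+Huaier 3). Exons of PQBP1 on the opposite strand, with 957 to 1529 counts in BP+Huaier and 935 to 1128 in BP, overlap 14.2% of its exon bases, and whether counting used strand is not given. TIMM17A, the paralog whose protein is degraded under stress, was at 60.6, 84.7 and 76.9 CPM in BP+Huaier and 72.2, 66.6 and 66.7 CPM in BP. Its groups overlapped (edgeR adjusted p = 0.59). TIMM21, which links the complex to TOM and to respiratory chain assembly, was at 9.01, 14.3 and 15.8 CPM in BP+Huaier and 19.1, 19.3 and 20.8 CPM in BP. All BP+Huaier libraries were below all BP libraries, BP+Huaier 1 most (log2 fold change -0.60 ± 0.21, edgeR adjusted p = 0.061), and 6 of 15 alternatives called it, among them the fit without BP+Huaier 3 (-0.75, 0.0021).

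Import motor genes had log2 fold changes above 0 in 4 of 4 cases, 0.03 to 0.41, beside 7318 of 15022 tested genes. None was called. The value of GRPEL1 was below 0 in several alternatives, such as -0.25 under scaling by library size alone and -0.07 without BP+Huaier 1. With the GC and length trend removed the value of TIMM44 was 0.00. TIMM44, which tethers the motor to the channel, was at 123, 112 and 99.0 CPM in BP+Huaier and 86.5, 79.8 and 97.4 CPM in BP, without overlap (log2 fold change 0.34 ± 0.14, edgeR adjusted p = 0.10, and 0.43 with 0.0036 without BP+Huaier 3). GRPEL2, a nucleotide exchange factor linked to oxidative stress, was at 36.0, 39.7 and 53.1 CPM in BP+Huaier and 34.3, 35.7 and 26.8 CPM in BP. It too had no overlap, with its highest value in BP+Huaier 3 (log2 fold change 0.41 ± 0.19, edgeR adjusted p = 0.12). GRPEL1, the constitutive factor, was at 62.0, 58.0 and 43.1 CPM in BP+Huaier and 50.0, 54.2 and 55.3 CPM in BP, a fold of 1.02 (95% interval 0.792 to 1.32). PAM16, which in yeast restrains the J-protein of the motor, averaged 3.13 ± 0.89 CPM in BP+Huaier and 2.48 ± 0.424 CPM in BP (SD, n = 3), with 22.4% of its exon bases inside the read-through gene CORO7-PAM16.

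The subunits of the matrix processing peptidase differed in the sign of their change, and neither was called. PMPCA, the alpha subunit, was at 259, 254 and 177 CPM in BP+Huaier and 167, 166 and 175 CPM in BP, without overlap (log2 fold change 0.44 ± 0.17, edgeR adjusted p = 0.075, and 0.61 with 4.2e-05 without BP+Huaier 3). PMPCB, the catalytic beta subunit, was at 67.3, 72.3 and 76.6 CPM in BP+Huaier and 94.5, 94.9 and 77.8 CPM in BP. Its groups did not overlap either, in the other direction, with BP+Huaier 3 and BP 3 close together (log2 fold change -0.31 ± 0.14, edgeR adjusted p = 0.12, and -0.34 with 0.019 without BP+Huaier 3). Exons of DNAJC2 on the opposite strand overlap 13% of PMPCB.

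Among the members outside the import pathway proper, TIMMDC1 (ENSG00000113845.10, chromosome 3, 119498547 to 119525090) was at 54.0, 55.1 and 50.0 CPM in BP+Huaier and 76.4, 71.8 and 71.6 CPM in BP. All BP+Huaier libraries were below all BP libraries, and BP+Huaier 3 was the lowest. It fell 1.38-fold (log2 fold change -0.47 ± 0.12 SE; edgeR adjusted p = 0.023), and without BP+Huaier 3 the log2 fold change was -0.41 (edgeR adjusted p = 0.0032). Leaving out BP 1, BP 2, BP 3 or BP+Huaier 2 ended the call (edgeR adjusted p = 0.13, 0.084, 0.095 and 0.078), as did testing with no filter on low counts (0.075), with log2 fold changes from -0.73 to -0.34 over 15 alternatives. Exons of CD80 on the opposite strand overlap 29.4% of its exon bases, and CD80 had at most 2 counts in a library. TOMM34, a cytosolic co-chaperone of import precursors, was at 157, 163 and 136 CPM in BP+Huaier and 121, 121 and 122 CPM in BP, without overlap (log2 fold change 0.33 ± 0.13, edgeR adjusted p = 0.083, and 0.41 with 0.0013 without BP+Huaier 3).

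Ratios of counts within a pair do not depend on how libraries were scaled, so 7 pairs of paralogs or partner subunits were compared. The ratio of TOMM40 to TOMM40L was 16.3, 16.3 and 12.4 in BP+Huaier 1, 2 and 3 and 6.58, 6.11 and 6.40 in BP 1, 2 and 3. It was 2.34-fold higher in BP+Huaier and did not overlap. The ratio of PMPCA to PMPCB was 3.85, 3.52 and 2.31 in BP+Huaier and 1.77, 1.74 and 2.25 in BP. It was 1.65-fold higher without overlap, BP+Huaier 3 and BP 3 being nearly equal. Such ratios can still vary with GC content, which is 52.3% for PMPCA and 39.6% for PMPCB. With each library's dependence on GC content and length taken out, the log2 difference between groups went from 0.72 to 0.43 for PMPCA to PMPCB. For TOMM40 to TOMM40L it went from 1.22 to 1.09. Any group difference that goes with GC content or length is taken out too. An exact two-sided permutation test of the log2 ratios gave p = 0.10 for both pairs, the smallest that 3 against 3 libraries allow, and 0.35 after adjustment over 7 pairs. The ratios TIMM17A to TIMM17B, TIMM8A to TIMM8B, GRPEL1 to GRPEL2, TIMM9 to TIMM10 and MTX1 to MTX2 overlapped between groups, with exact permutation p from 0.20 to 0.50.

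**Figure D3:**
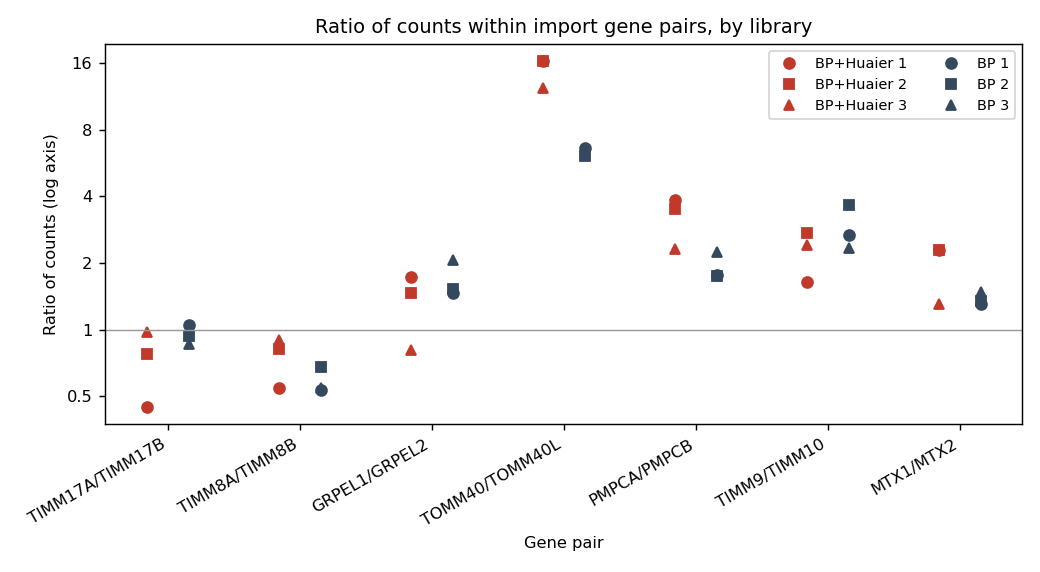
Ratio of counts of the first to the second gene of 7 pairs (log axis) in 3 BP+Huaier libraries (left, red) and 3 BP libraries (right, dark). The groups are apart for TOMM40/TOMM40L (12.4 to 16.3 against 6.11 to 6.58) and just apart for PMPCA/PMPCB, and overlap for the other 5 pairs.

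The members were ranked by level per length, as CPM per kilobase of exon by the lengths in the deposited table. In BP the order began with TOMM20 at 110 ± 5.4, TIMM23 at 68.3 ± 2.18, TOMM34 at 61.4 ± 0.276, TOMM7 at 42.6 ± 14.1 and TOMM40 at 37.8 ± 4.08 (SD, n = 3). In BP+Huaier it began with TOMM20 at 105 ± 13.1, TOMM34 at 77.2 ± 7.1, TIMM23 at 61.2 ± 11, TOMM40 at 58.0 ± 18.2 and TOMM7 at 51.3 ± 15.0. In BP the mean ± SD of TOMM7 and TOMM40 overlapped, so their order is not settled. In BP+Huaier TOMM34, TIMM23 and TOMM40 overlapped each other in this way, and so did TIMM23, TOMM40 and TOMM7. The order of these genes is thus not settled there, and TOMM20 stood clear of the next gene in both groups. Among subunits of 1 complex, TIMM21 had 2.51 ± 0.684 in BP+Huaier and 3.79 ± 0.18 in BP, far below TIMM23, and SAMM50 had 8.60 ± 1.54 in BP+Huaier and 8.83 ± 0.236 in BP. The lengths join all annotated exons, so genes with many rarely used exons appear lower. Summed over the 34 members the level (not per length) was 2697, 2502 and 2085 CPM in BP+Huaier 1, 2 and 3 and 2157, 2070 and 2144 CPM in BP 1, 2 and 3. As a share of all counts, without TMM, it was 0.229%, 0.214% and 0.216% in BP+Huaier and 0.237%, 0.228% and 0.232% in BP. On the first scale BP+Huaier 1 and 2 were above BP, and on the second BP+Huaier 2 and 3 were below it, so the direction of the sum depends on the scaling.

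The levels of the members were also set against transcript GC content, library by library. The log2 ratio to the BP mean (of CPM + 0.5) had a median over the 32 members of 0.14, 0.13 and -0.09 in BP+Huaier 1, 2 and 3. In BP+Huaier 3, 11 of 32 members had a ratio of opposite sign to the mean of BP+Huaier 1 and 2. Across the 32 members, which share libraries and are not independent replicates, this ratio correlated with the GC content of the longest transcript in BP+Huaier 1 (r = 0.69) and BP+Huaier 2 (r = 0.46), and had r = 0.01 in BP+Huaier 3. Over all tested genes the same correlation was 0.39, 0.27 and 0.03 in BP+Huaier 1, 2 and 3 and 0.03, -0.44 and 0.42 in BP 1, 2 and 3, so single libraries of both groups varied with GC content. The log2 fold change of the groups had r = 0.54 and Spearman's rho = 0.56 across members, against r = 0.26 across 14896 tested genes. The median GC content was 53.4% for the 5 members above BP without overlap and 42.5% for the 4 below. TOMM40L, at 53.7% GC, fell, and its GC content is above the members' median of 46.2%. Over all tested genes the median log2 fold change was -0.28 in the lowest bin of GC content and 0.403 in the highest. A group difference that goes with GC content and a technical GC trend cannot be told apart. Removal of the trend takes out both. With each library's smooth dependence on GC content and length taken out, TIMM17B, TOMM34, TOMM70 and GRPEL2 were called higher and TOMM40L, TIMMDC1 and TIMM21 lower (7 of 32 members, beside 37.9% of all genes), and the correlation across members was 0.07. The log2 fold change of TOMM40 was then 0.30 (edgeR adjusted p = 0.10), that of TIMM44 0.00 (0.99) and that of TOMM40L -0.81 (0.0012). Of the 10 members called higher without BP+Huaier 3, 0 were called in the fit reported, with all 6 libraries and the trend kept. TIMM17B and TOMM34 were called in all 6 libraries with the trend taken out. That fit and the fit without BP+Huaier 3 differ in both library and trend, and the part of each was not tested. With the trend taken out, all 6 libraries gave -0.09 (edgeR adjusted p = 0.63) for TIMM13 and 0.19 (0.32) for MTX1. TIMM29 was at 0.29 (0.14) and TOMM22 at 0.27 (0.32). TIMM50 was at 0.43 (0.069) and PMPCA at 0.35 (0.056). Of the 4 called lower without BP+Huaier 3, PMPCB was at -0.09 (0.50) and not called.

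**Figure D4:**
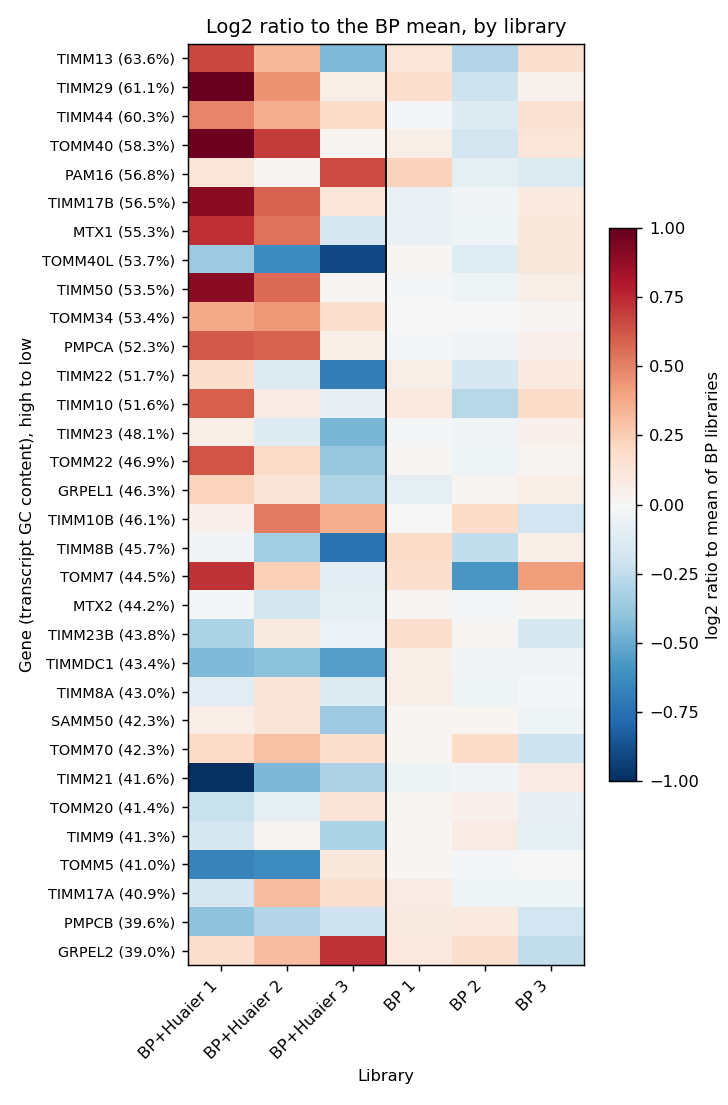
Log2 ratio of each of the 32 tested import genes to the mean of the BP libraries, by library, BP+Huaier on the left and BP on the right, with genes from high to low transcript GC content. BP+Huaier 1 and 2 are mostly red towards the top, BP+Huaier 3 is mixed there, and TOMM40L is blue in all 3 BP+Huaier libraries.

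**Figure D5:**
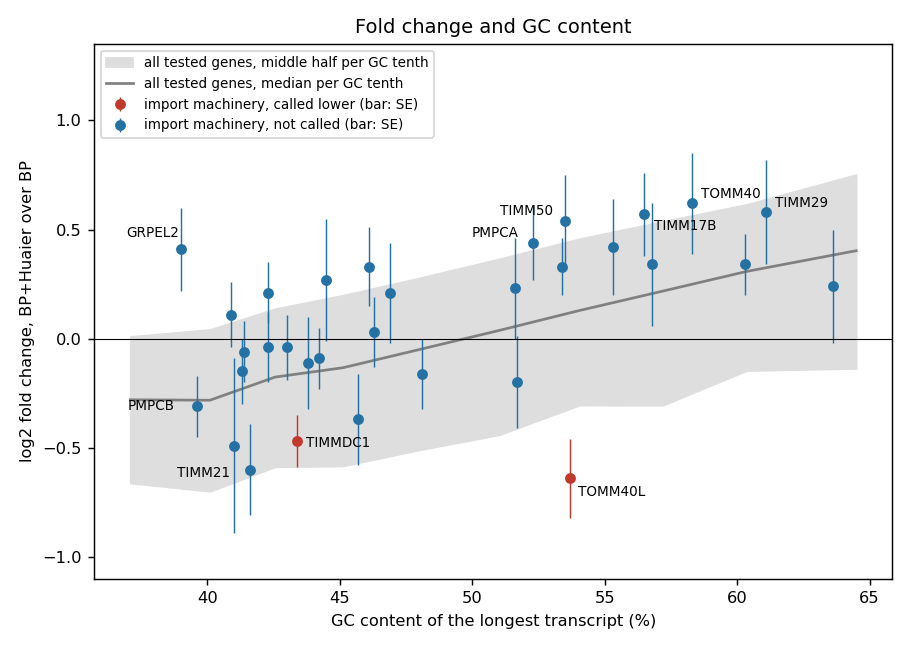
Log2 fold change of BP+Huaier over BP against transcript GC content (%) for the 32 tested import genes (points, bars are SE, red where called), over the median (line) and interquartile range (band) of all tested genes in bins of GC content. The correlation across members is r = 0.54, and TOMM40L at 53.7% GC lies below the band.

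Other genes of mitochondrial import outside the rule, 38 listed and 38 tested, gave 5 higher and 2 lower calls by edgeR (18.4%, beside 29.3% of all tested genes), with a median log2 fold change of 0.05. DNAJC11, a J-protein found with the SAM complex and the cristae organiser, fell, at 29.4, 24.8 and 32.5 CPM in BP+Huaier and 55.0, 49.2 and 52.2 CPM in BP (log2 fold change -0.85 ± 0.15, edgeR adjusted p = 0.0045). The groups were far apart, and it was called in 15 of 15 alternatives. XPNPEP3, a peptidase that trims imported proteins, fell as well, at 29.9 ± 2.63 CPM in BP+Huaier and 43.9 ± 4.5 CPM in BP (SD, n = 3; edgeR adjusted p = 0.021). Exons of THAP3 on the opposite strand, with 543 to 762 counts in BP+Huaier and 408 to 440 in BP, overlap 27.9% of DNAJC11. HSPA8, the cytosolic HSP70 that delivers precursors to TOMM70, rose to 1898 ± 638 CPM in BP+Huaier, against 1111 ± 66.1 CPM in BP (SD, n = 3; edgeR adjusted p = 0.033). UBQLN4, a ubiquilin, rose to 274 ± 38 CPM in BP+Huaier, against 188 ± 13.5 CPM in BP.

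CHCHD4, the oxidoreductase of the intermembrane space that folds small TIM proteins, rose to 19.6 ± 3.14 CPM in BP+Huaier, against 13.2 ± 1.23 CPM in BP (SD, n = 3; log2 fold change 0.56 ± 0.17, edgeR adjusted p = 0.038). Its electron acceptor GFER was at 25.8 ± 8.87 CPM in BP+Huaier and 15.1 ± 2.23 CPM in BP and missed the threshold (log2 fold change 0.77 ± 0.26, edgeR adjusted p = 0.050). It was called in 4 of 15 alternatives, among them DESeq2 (adjusted p = 0.017) and the fit without BP+Huaier 3 (log2 fold change 1.03, edgeR adjusted p = 6.6e-05). With the GC and length trend removed it was not called (log2 fold change 0.40, edgeR adjusted p = 0.064). AIFM1, listed with CHCHD4 and GFER, overlapped between groups and was not called (log2 fold change 0.16 ± 0.14, edgeR adjusted p = 0.40). CHCHD6, a subunit of the cristae organiser MICOS, rose to 54.5 ± 14.9 CPM in BP+Huaier, against 34.2 ± 3.83 CPM in BP (edgeR adjusted p = 0.039). None of the 6 matrix chaperones and motor partners was called, HSPA9, HSPD1 and HSPE1 among them, beside 29.3% of all tested genes. At an unadjusted p under 0.05 edgeR found 0 of these 6, beside 43.3%. Without BP 1, BP 2, BP 3 or BP+Huaier 2, HSPA8, UBQLN4, CHCHD4 and CHCHD6 each lost their call (edgeR adjusted p from 0.071 to 0.15). Without BP+Huaier 1, UBQLN4, CHCHD4 and CHCHD6 lost it as well (edgeR adjusted p = 0.056, 0.083 and 0.093), and under scaling by library size alone all 4 did (0.074 to 0.20). XPNPEP3 lost its call without any BP library or BP+Huaier 2 (edgeR adjusted p from 0.052 to 0.10).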

How the data were processed

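The deposited values were whole-number read counts for each gene, unscaled judging by their unequal totals. Per the submitters' processing notes the authors used fastp 0.20.0, HISAT2 2.1.0, featureCounts 1.6.1 and GRCh38. Annotation release, strand, multi-mapping and overlap settings are not given there. Reads were 150 bp pairs, per the labels' protocols.

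Left out were 44 second copies on the Y chromosome and 3 broken lines of 1 gene, leaving 60604 genes, 99.77% with a symbol. Biotypes, exons and GC content came from GENCODE 29. In R 4.3.3, edgeR 4.0.16 filtered genes by group (15022 kept), scaled by TMM and ran its robust quasi-likelihood test on group alone, with Benjamini-Hochberg adjustment. SE and 95% intervals come from that test. Libraries within groups differed by 3.43 to 69.6 times the sampling variance. In simulated counts (15022 genes), 74% of 2-fold and 98% of 4-fold changes were recovered and 6.52% of calls were false. In a separate draw, 1436 calls made by a simulated GC trend fell to 0 once the trend was taken out. The simulation changed few genes, gave both groups the same spread and held no outlying library. Its GC trend was equal in all BP+Huaier libraries and stood without true changes. The data differ in these points, so the simulated rates do not describe them. Pair ratios used counts + 0.5.

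Members, lists and pairs were chosen with earlier results of these data known. Every member could be named. Values by library are given for called members, the highest per length in each role and 14 set genes. Of the other import genes, called ones of at least 5 CPM are given, except 1 that is not reported here but enters the counts. GFER, AIFM1, HSPA9, HSPD1 and HSPE1 were named after their values were seen. Alternatives, among them limma 3.58.1 and DESeq2 1.42.0, are given at the end.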

Additional observations from a re-analysis of the deposited data

How the results depend on the processing

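The 32 members' log2 fold changes kept their sign under DESeq2's size factors in edgeR, DESeq2, limma-voom, no filter on low counts and the replicate block. With 1 library left out at a time, members called ranged from 0 to 10 higher and 0 to 4 lower, other import genes from 0 to 11 higher and 1 to 6 lower, all genes from 810 to 4452 higher and 909 to 4793 lower, and the members' median log2 fold change from 0.01 to 0.19. The highest of each count came without BP+Huaier 3, and its cause was not tested. Of 32 members, 1 was called higher with DESeq2 size factors, 5 with DESeq2 and 4 with the GC and length trend removed. Of 15022 genes, 2287, 2760 and 2749 were called higher in these fits. With no filter, 5 of 33 members and 2839 of 31218 genes were higher. Calls in either direction then made up 21.2% of members and 18.7% of all genes. Of 38 other import genes, 8 were called higher with DESeq2 and 8 with the trend removed. At 5 CPM or more 2 of 35 were, where 1517 of 10600 genes were higher and 1363 lower. Scaling by library size alone moved the median of all genes to -0.28 and that of the members to -0.12, with 1051 genes, 0 members and 1 other import gene higher and 2959 genes, 6 members and 4 other import genes lower. At an adjusted p under 0.01, 826 genes were higher and 810 lower, 0 members were called, and 0 other import genes were higher and 1 lower.

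Log2 fold changes that turned sign were those of GRPEL1 (-0.25), TIMM10 (-0.05), TIMM13 (-0.05), TOMM22 (-0.09), TOMM7 (-0.02), TOMM70 (-0.06) and TIMM17A (-0.14) under scaling by library size alone. GRPEL1 was also at -0.07 at 5 CPM or more and -0.02 among protein-coding genes only. With the GC and length trend removed they were TIMM13 (-0.09), TIMM8A (0.08), TIMM9 (0.12), TOMM20 (0.08), MTX2 (0.08) and SAMM50 (0.14). With 1 library left out, ranges across 0 were -0.40 to 0.02 for TIMM22, -0.07 to 0.18 for GRPEL1, -0.0021 to 0.38 for TIMM10, -0.01 to 0.51 for TIMM13, -0.12 to 0.02 for TIMM8A, -0.15 to 0.02 for TOMM20, -0.06 to 0.44 for TOMM22, -0.20 to 0.02 for TIMM23B and -0.12 to 0.11 for SAMM50. None of these genes was called in the fit reported.

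Libraries that share a number did not deviate together (correlations 0.009, -0.056 and -0.276 for numbers 1, 2 and 3). These deviations are taken within groups of 3 libraries, and BP+Huaier 3 stands apart, so they cannot settle whether the numbers pair libraries. With the replicate block, 1357 genes were higher and 1742 lower, 0 members were called, and 2 other import genes were higher and 1 lower. At an unadjusted p under 0.05 edgeR found 3 higher and 3 lower members in that fit, beside 37.5% of all tested genes. TOMM5, PAM16 and TOMM20L, with under 5 CPM, are limited by depth.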
